A study of Rattus norvegicus with 16 samples.

Results

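The collagen genes of the rat were taken as every gene row whose symbol is Col, a number, a and a number, which gave 42 of the 31141 genes in the deposited table. By the classes of the collagen family they comprise 11 fibrillar, 4 basement membrane, 9 FACIT (fibril-associated), 6 beaded filament, 3 short-chain network, 4 transmembrane and 2 multiplexin genes, 1 anchoring fibril gene and 2 others. Their mRNA was measured in tibialis anterior, a muscle of the lower leg, by sequencing of poly-A RNA from rats of the Wistar-Imamichi strain fed from weaning to 9 months. DMD_KD (6 libraries) are rats labelled with the genotype Dmd and fed MCTKD, known in the field as a medium-chain triglyceride ketogenic diet. DMD_ND (6 libraries) are Dmd rats fed the normal diet. WT_ND (4 libraries) are wild-type rats fed the normal diet. The exact Dmd allele is not given in the labels, and there is no wild-type group on MCTKD. Nothing in the labels says that libraries came from separate animals, so p-values measure the spread between these libraries.

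Collagens are secreted proteins of α chains wound into a triple helix, and they form most of the extracellular matrix. Fibrillar types I, III and V build the fibres of the sheaths around muscle, type IV forms the network of the basement membrane around each muscle fibre, and type VI forms beaded filaments beside it. Loss of dystrophin, the product of Dmd, damages muscle fibres, and collagen accumulates in dystrophic muscle as fibrosis.

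Levels are given in FPKM, fragments per kilobase of gene and per library size, so that genes of different length can be set side by side. The library size behind the deposited values was not the read total but followed median-of-ratios size factors, as described under the processing. The reads assigned to genes numbered from 17125084 to 28116085 a library. Mitochondrial genes held 14.4% to 17.0% of them in DMD_KD, 11.9% to 13.97% in DMD_ND and 19.7% to 25.1% in WT_ND, without overlap between any of the groups, and the part of this in the results below was not tested. Dmd itself stood at 1.36 ± 0.545 FPKM in DMD_KD (SD, n = 6), 1.76 ± 0.209 in DMD_ND (n = 6) and 7.32 ± 3.32 in WT_ND (n = 4), and each mutant library lay below each WT_ND library. Replicate 3 of DMD_KD stands apart from the other mutant libraries, with the lowest limma array weight of all libraries, 0.129. WT_ND replicates 4 and 1 had the next lowest weights, 0.238 and 0.283. On the second axis of a principal component analysis of the tested genes, WT_ND replicates 1 and 4 lay at -14.0 and -18.8, and replicates 3 and 9 at 30.1 and 25.3. Every comparison with wild type rests on these 4 libraries, and the cause of the split was not tested. The tissue was bulk muscle, in which fewer cells of a type and less RNA per cell cannot be told apart.

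The promoter windows of 4 members are printed because their genes carry the main contrasts below: Col4a1 and Col4a2 as a pair read from 1 shared stretch, Col1a2 as a strongly raised fibrillar chain, and Col7a1 as the lowered one. Each holds 250 bases before and 50 after the start of the gene, from RefSeq on the build GRCr8, written 5′ to 3′ on the strand of the gene. Of the 42 members, 33 had such a window. Col4a1 lies at chr16:84885347-84885646 on the plus strand and Col4a2 at chr16:84885471-84885770 on the minus strand, and capitals mark the 176 bases that both windows cover.
Col4a1: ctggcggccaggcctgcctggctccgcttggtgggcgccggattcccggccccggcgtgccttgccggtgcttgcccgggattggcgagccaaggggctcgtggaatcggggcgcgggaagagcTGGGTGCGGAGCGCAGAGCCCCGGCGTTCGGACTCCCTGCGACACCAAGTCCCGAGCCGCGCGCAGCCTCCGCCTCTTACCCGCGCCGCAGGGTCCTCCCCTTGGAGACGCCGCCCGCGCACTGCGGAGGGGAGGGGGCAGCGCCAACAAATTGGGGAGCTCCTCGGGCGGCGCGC
Col4a2: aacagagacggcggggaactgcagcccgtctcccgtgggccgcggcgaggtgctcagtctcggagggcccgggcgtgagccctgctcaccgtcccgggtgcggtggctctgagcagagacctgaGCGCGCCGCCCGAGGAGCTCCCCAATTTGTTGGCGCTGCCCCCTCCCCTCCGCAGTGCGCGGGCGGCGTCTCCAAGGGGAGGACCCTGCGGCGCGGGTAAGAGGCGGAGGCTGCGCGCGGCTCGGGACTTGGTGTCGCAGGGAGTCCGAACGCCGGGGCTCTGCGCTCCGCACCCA
Col1a2 lies at chr4:33518307-33518606 and Col7a1 at chr8:118483114-118483413, both on the plus strand, and capitals mark matches to the motifs below.
Col1a2: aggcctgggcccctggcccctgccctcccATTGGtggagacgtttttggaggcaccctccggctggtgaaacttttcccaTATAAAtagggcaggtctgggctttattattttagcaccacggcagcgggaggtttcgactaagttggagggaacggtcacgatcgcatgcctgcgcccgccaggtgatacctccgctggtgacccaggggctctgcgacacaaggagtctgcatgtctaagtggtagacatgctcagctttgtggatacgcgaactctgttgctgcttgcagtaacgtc
Col7a1: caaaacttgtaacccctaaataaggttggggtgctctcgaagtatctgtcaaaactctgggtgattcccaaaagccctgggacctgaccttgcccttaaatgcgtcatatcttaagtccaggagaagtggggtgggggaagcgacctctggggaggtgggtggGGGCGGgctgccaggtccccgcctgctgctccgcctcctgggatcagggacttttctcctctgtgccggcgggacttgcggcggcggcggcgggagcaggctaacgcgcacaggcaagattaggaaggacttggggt
The letter strings below were searched on both strands, and a match of GGGCGG may share bases with one of CCAAT on the other strand. TATAAA, the TATA box, was in 12.1% of the 33 collagen windows and 14.3% of all 27457 windows. CCAAT was in 33.3% of collagen windows and 37.7% of all windows. GGGCGG, the GC box, was in 54.5% of collagen windows and 34.9% of all windows. Col1a2 held a TATAAA 170 bases and a CCAAT match 221 bases before its start, while Col7a1 held a GGGCGG 87 bases before its start. These are matches of letters in the window and say nothing of a factor.

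Dmd rats on the normal diet had higher mRNA of most collagens than wild-type rats. A gene was tested where at least 4 libraries reached 1 FPKM, which 24 of the 42 members did, and it was called at an adjusted p under 0.05 (limma on log2 of FPKM + 1, Benjamini-Hochberg over 12119 genes). In DMD_ND against WT_ND 22 members were called higher, where 31.5% of all tested genes were called higher, and 1 was called lower, where 34.3% were. The median log2 fold change of the tested members was 1.77, and that of all tested genes was -0.04. With each library rescaled to a common total, 8564 of all genes were called higher and 720 lower, in place of 3815 and 4152. The median of all genes moved to 0.83 and that of the members to 2.79. The members were then 23 higher and 1 lower. Of the 24, 7 had no WT_ND library at 1 FPKM and so passed the filter only through the mutant libraries, and Col7a1 passed only through WT_ND. Of all 42 members, 29 had every DMD_ND library above every WT_ND library, against 20.9% of all genes with a read, and Col7a1 and Col4a3 had every DMD_ND library below, against 16.5%.

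**Figure D1:**
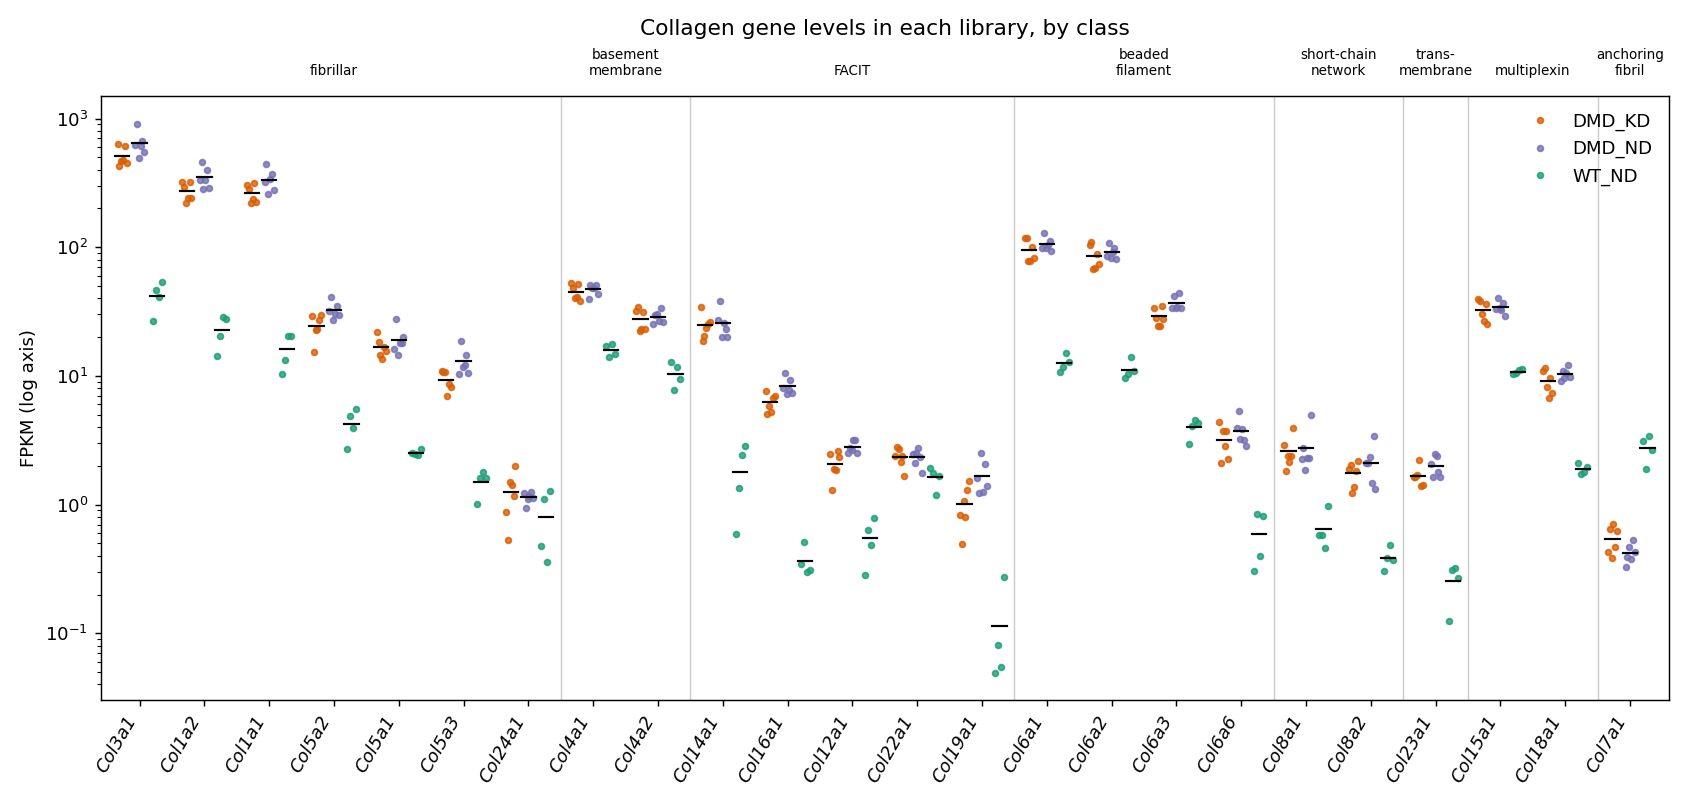
FPKM (log axis) of the 24 tested collagen genes in each library, grouped by class. Points are libraries, DMD_KD left, DMD_ND in the middle and WT_ND right, and bars are means. Col3a1, Col1a2 and Col1a1 are highest in the mutant libraries, and only Col7a1 is highest in WT_ND.

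Chains of types I and III had the largest log2 fold changes of FPKM + 1 among the tested collagens, while by the ratio of mean FPKM, with nothing added, Col16a1 (22.8-fold) stood above Col1a1 (20.7-fold). Col1a1, the α1 chain of type I collagen, had 260.3 FPKM at the lowest, 328 at the median and 446 at the highest of the 6 DMD_ND libraries, against 10.4, 13.3, 20.5 and 20.4 FPKM in WT_ND. No DMD_ND library overlapped WT_ND, and Col1a1 rose by a log2 fold change of 4.32 ± 0.20 (SE, adjusted p = 5.3e-11), which is 19.98-fold. Col1a2, the other chain of type I, had 283, 331 and 458 FPKM in DMD_ND, against 14.3, 20.4, 28.6 and 27.6 FPKM in WT_ND. It rose by 3.91 ± 0.19 on the log2 scale (adjusted p = 9.3e-11). Col3a1, the single chain of type III collagen, was the most abundant collagen mRNA in the mutants, with 496, 615 and 908 FPKM in DMD_ND, against 26.7, 46.4, 41.3 and 53.8 FPKM in WT_ND. It rose by 3.92 ± 0.20 (adjusted p = 1.1e-10).

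Type V collagen, which sits inside type I fibrils and limits their width, rose less. Col5a2 stood at 27.4, 31.3 and 40.7 FPKM in DMD_ND (lowest, median, highest), against 2.68, 4.84, 3.93 and 5.49 in WT_ND, a log2 fold change of 2.70 ± 0.18 (adjusted p = 2.2e-09). Col5a1 had 14.6, 18.1 and 27.9 FPKM in DMD_ND, against 2.54, 2.48, 2.41 and 2.72 in WT_ND. Col5a3 had 10.3, 11.9 and 18.6 FPKM in DMD_ND, against 1.01, 1.62, 1.78 and 1.61 in WT_ND. They rose by 2.48 ± 0.15 and 2.46 ± 0.16, and no library of DMD_ND overlapped WT_ND. Col24a1, a fibrillar chain known from bone, had 0.941, 1.14 and 1.26 FPKM in DMD_ND, against 0.480, 1.10, 0.361 and 1.26 in WT_ND. These groups overlapped, and its log2 fold change of 0.28 ± 0.17 was not called (adjusted p = 0.16, limma). With each library rescaled to a common total, Col24a1 was called, at 0.95.

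Chains of type VI collagen, mutations of which cause muscular dystrophies in humans, were called higher. Col6a1 had 93.4, 102 and 128 FPKM in DMD_ND, against 10.8, 11.7, 15.1 and 12.7 in WT_ND. Col6a1, Col6a2 and Col6a3, the 3 chains of the common type VI molecule, had log2 fold changes of 2.98 ± 0.15, 2.92 ± 0.15 and 2.93 ± 0.13. Col6a2 had 81.3, 88.3 and 108 FPKM in DMD_ND, against 9.66, 10.3, 13.9 and 10.8 in WT_ND. Col6a3 had 33.6, 34.1 and 43.9 FPKM in DMD_ND, against 2.97, 4.08, 4.52 and 4.33 in WT_ND. The groups did not overlap for any of these chains. Col6a6, an alternative chain, was lower in level, at 2.88, 3.54 and 5.38 FPKM in DMD_ND, against 0.307, 0.841, 0.399 and 0.815 in WT_ND. Its log2 fold change was 1.57 ± 0.17, but no WT_ND library reached 1 FPKM, so it was tested through the mutant libraries alone. The ratio of its mean FPKM, with nothing added, was 6.35-fold.

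The basement membrane chains rose to a smaller degree. Col4a1 had 39.6, 48.4 and 51.0 FPKM in DMD_ND, against 17.1, 13.99, 17.8 and 14.9 in WT_ND, a log2 fold change of 1.5 ± 0.12 (adjusted p = 1.5e-08). Col4a2, its partner in the common type IV molecule, had 25.2, 28.3 and 33.7 FPKM in DMD_ND, against 12.7, 7.74, 11.6 and 9.43 in WT_ND. Its log2 fold change was 1.39 ± 0.15. In the deposited coordinates (mRatBN7.2, chromosome 16) these genes lie head to head and overlap by 307 bases, so reads of that stretch could not be assigned without strand. Col15a1 and Col18a1, the multiplexins, which bear heparan or chondroitin sulfate and lie at basement membranes, rose by 1.58 ± 0.13 and 1.97 ± 0.13. Col15a1 had 29.3, 33.6 and 40.1 FPKM in DMD_ND, against 10.3, 10.5, 11.1 and 11.3 in WT_ND. Col18a1 had 9.16, 10.2 and 12.1 FPKM in DMD_ND, against 2.09, 1.73, 1.79 and 1.96 in WT_ND. Both were without overlap.

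Among the FACIT genes, whose proteins bind to the surface of fibrils, the range was wide. Col14a1 had 20.1, 24.4 and 38.1 FPKM in DMD_ND, against 0.595, 1.35, 2.42 and 2.84 in WT_ND, a log2 fold change of 3.30 ± 0.23 (adjusted p = 3.5e-09). Col16a1 had 7.26, 7.91 and 10.6 FPKM in DMD_ND, against 0.344, 0.513, 0.301 and 0.312 in WT_ND. Col12a1 had 2.50, 2.70 and 3.17 FPKM in DMD_ND, against 0.285, 0.634, 0.484 and 0.780 in WT_ND. No WT_ND library of either, nor of Col19a1, reached 1 FPKM. Col16a1 rose by 2.77 ± 0.12, Col12a1 by 1.3 ± 0.13 and Col19a1 by 1.25 ± 0.15. The added 1 FPKM shrinks such changes in low genes and alters their order. By the ratio of mean FPKM, with nothing added, Col16a1 rose 22.8-fold, Col19a1 14.7-fold, Col14a1 14.3-fold and Col12a1 5.12-fold. Col22a1, a collagen of the junction between muscle and tendon, had 1.75, 2.41 and 2.75 FPKM in DMD_ND, against 1.92, 1.77, 1.18 and 1.68 in WT_ND. These groups overlapped, and its log2 fold change of 0.34 ± 0.12 (adjusted p = 0.019, limma) was not called without WT_ND replicate 4 (0.25, adjusted p = 0.087). Among the remaining tested genes, Col8a1, Col8a2 and the transmembrane Col23a1 rose by 1.14, 1.14 and 1.25. By the ratio of mean FPKM they rose 4.21-fold, 5.50-fold and 7.84-fold. Col8a1 had 1.86, 2.30 and 4.95 FPKM in DMD_ND, against 0.577, 0.576, 0.460 and 0.982 in WT_ND. Col8a2 had 1.32, 2.11 and 3.39 FPKM in DMD_ND, against 0.305, 0.381, 0.487 and 0.370 in WT_ND. Col23a1 had 1.64, 1.93 and 2.47 FPKM in DMD_ND, against 0.124, 0.308, 0.320 and 0.270 in WT_ND. Col8a1 and Col8a2 form the short-chain network known from the basement membrane of the cornea, and none of the 3 overlapped between groups. These 3 too had no WT_ND library at 1 FPKM and were tested through the mutant libraries alone.

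Col7a1, the anchoring fibril collagen of skin, was the 1 tested member that fell. It had 0.325, 0.409 and 0.531 FPKM in DMD_ND, against 3.12, 1.89, 3.43 and 2.64 in WT_ND. It fell by 1.39 ± 0.11 on the log2 scale (adjusted p = 1.7e-08), and the groups did not overlap. The ratio of its mean FPKM, DMD_ND over WT_ND with nothing added, was 0.151. Col7a1 needs all 4 WT_ND libraries to pass the filter, so leaving out any of WT_ND replicates 1, 3, 4 and 9 removes it from the tested genes and takes the count of lowered members to 0.

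The 18 members below the filter were low in every group. Col11a1 and Col27a1, minor fibrillar chains, had the highest means among them in DMD_ND, at 1.008 ± 0.287 and 0.969 ± 0.165 FPKM (SD, n = 6), against 0.102 ± 0.0344 and 0.0838 ± 0.0423 in WT_ND (n = 4). Col2a1, the chain of cartilage, had 38 reads over the 6 DMD_ND libraries and 1 read over the 4 WT_ND libraries. The other 15 (Col10a1, Col11a2, Col13a1, Col17a1, Col20a1, Col25a1, Col26a1, Col28a1, Col4a3, Col4a6, Col6a4, Col6a5, Col9a1, Col9a2 and Col9a3) had group means of 0.0368 to 0.718 FPKM in DMD_ND and 0.00174 to 0.736 FPKM in WT_ND, with Col28a1 highest in DMD_ND and Col4a3 highest in WT_ND. When every gene with a read was fitted, 33 of the 42 members were called higher (24.7% of 22275 genes) and 2 lower (19.9%), the second being Col4a3, a chain of specialised basement membranes, at a log2 fold change of -0.55.

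**Figure D2:**
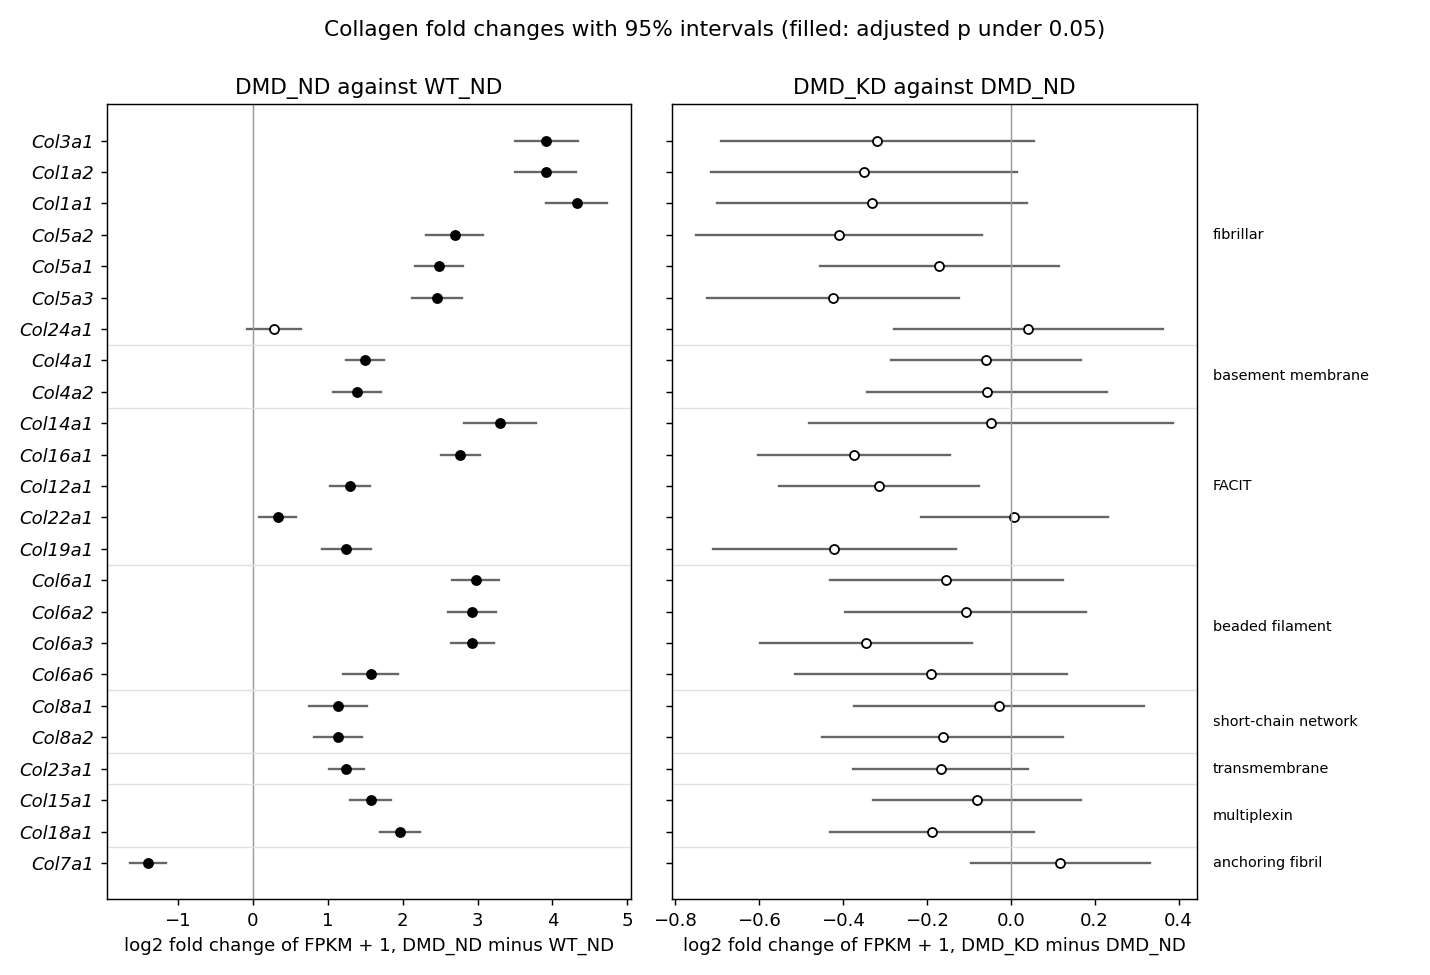
Log2 fold change of FPKM + 1 for each tested collagen, with 95% intervals, for DMD_ND minus WT_ND (left) and DMD_KD minus DMD_ND (right, on a narrower axis). Filled points were called: 23 of 24 on the left and 0 on the right.

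The make-up of the collagen mRNA differed between mutant and wild-type muscle. Summed collagen FPKM averaged 1477 ± 218 in DMD_KD (SD, n = 6), 1804 ± 328 in DMD_ND (n = 6) and 168.2 ± 26.9 in WT_ND (n = 4). The size of this difference depends on the scaling: the means of DMD_ND and WT_ND stood 10.7-fold apart in FPKM, and 18.2-fold apart as a percent of assigned reads, at 1.21% ± 0.216 in DMD_ND and 0.0665% ± 0.0182 in WT_ND. Fibrillar genes made up 74.7% ± 1.85 of it in DMD_KD, 77.1% ± 1.90 in DMD_ND and 53.1% ± 6.55 in WT_ND. Basement membrane genes made up 4.96% ± 0.312, 4.28% ± 0.650 and 16.5% ± 4.23 in those groups. The fibrillar share of every mutant library, 71.3% or more, lay above the highest WT_ND library, 58.9%. Beaded filament genes made up 14.5% ± 1.55 in DMD_KD, 13.3% ± 0.904 in DMD_ND and 17.0% ± 1.47 in WT_ND.

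**Figure D3:**
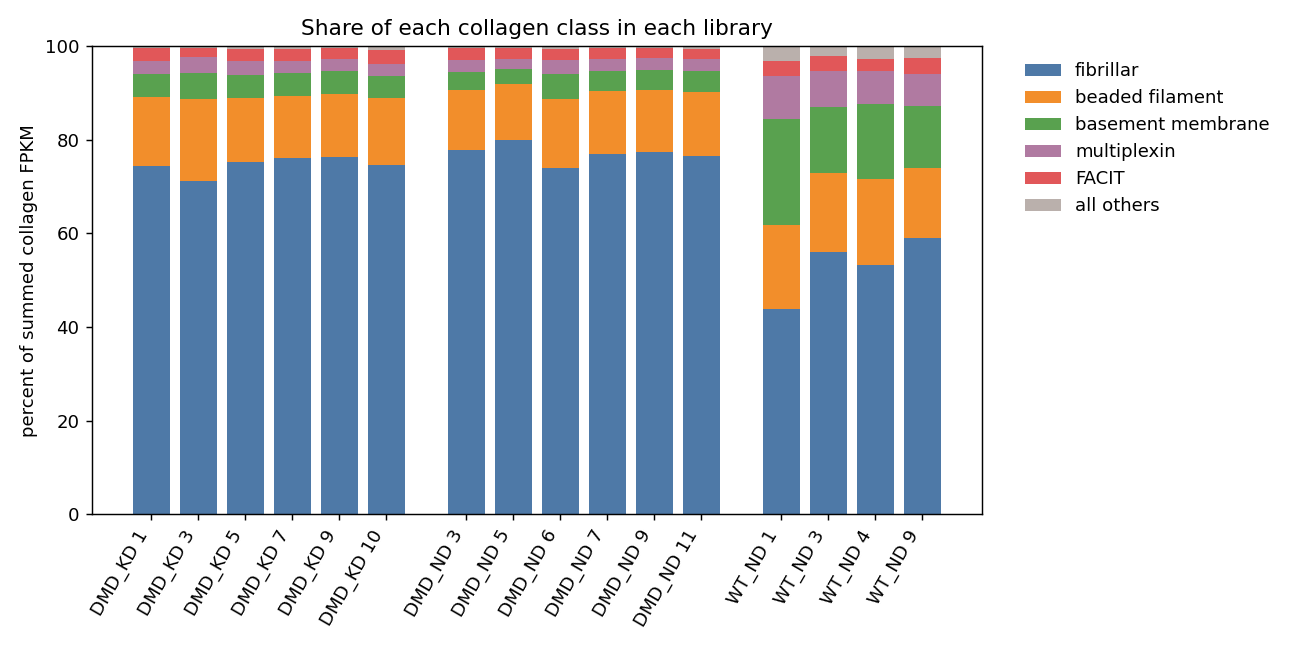
Percent of summed collagen FPKM held by each class, 1 stacked bar per library, with DMD_KD left, DMD_ND in the middle and WT_ND right. Fibrillar genes hold 71.3% or more in every mutant library and 58.9% or less in every WT_ND library.

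Ratios of 2 chains within a library do not depend on the scaling between libraries. Of 20 pairs set for the ratios, 11 could be compared between DMD_ND and WT_ND, by an exact two-sided permutation test over libraries, with p-values adjusted over 36 tests in all comparisons. The ratio of Col4a1 to Col1a1 was 0.113 to 0.185 in DMD_ND, against 0.731 to 1.64 in WT_ND, a log2 difference of -2.85 (exact p = 0.0048, the smallest that 210 relabellings allow, adjusted p = 0.017). Col6a1 to Col1a1 was 0.288 to 0.379 in DMD_ND, against 0.624 to 1.04 in WT_ND, and Col5a1 to Col1a1 was 0.0490 to 0.0726, against 0.117 to 0.244, both with the same p-values. The 2 chains of type I also shifted: Col1a1 to Col1a2 was 0.920 to 1.018 in DMD_ND and 0.653 to 0.738 in WT_ND, again without overlap. Col15a1 to Col18a1 was 2.99 to 3.66 in DMD_ND, against 4.91 to 6.198 in WT_ND, with the same p-values. Col3a1 to Col1a1 was 1.81 to 2.04 in DMD_ND, against 2.01 to 3.49 in WT_ND (adjusted exact p = 0.031), and this call was lost on leaving out any of DMD_ND replicates 3, 7, 9 and 11 or WT_ND replicates 1, 3 and 9 (adjusted p 0.052 to 0.078). Col1a1 is a term of every called ratio except Col15a1 to Col18a1, and it had the largest log2 fold change above. The calls that share it are therefore not separate from that fold change or from each other.

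For the other 5 pairs no difference was called. Col6a1 to Col6a2 was 1.13 to 1.21 in DMD_ND and 1.09 to 1.17 in WT_ND, and Col4a1 to Col4a2 was 1.52 to 1.81 in DMD_ND and 1.34 to 1.81 in WT_ND. Their log2 differences of 0.04 and 0.08 were not called (adjusted exact p = 0.25 and 0.57), nor were those of Col6a3 to Col6a1, Col5a1 to Col5a2 and Col5a3 to Col5a1. A p that misses the threshold does not show that the ratios are equal.

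**Figure D4:**
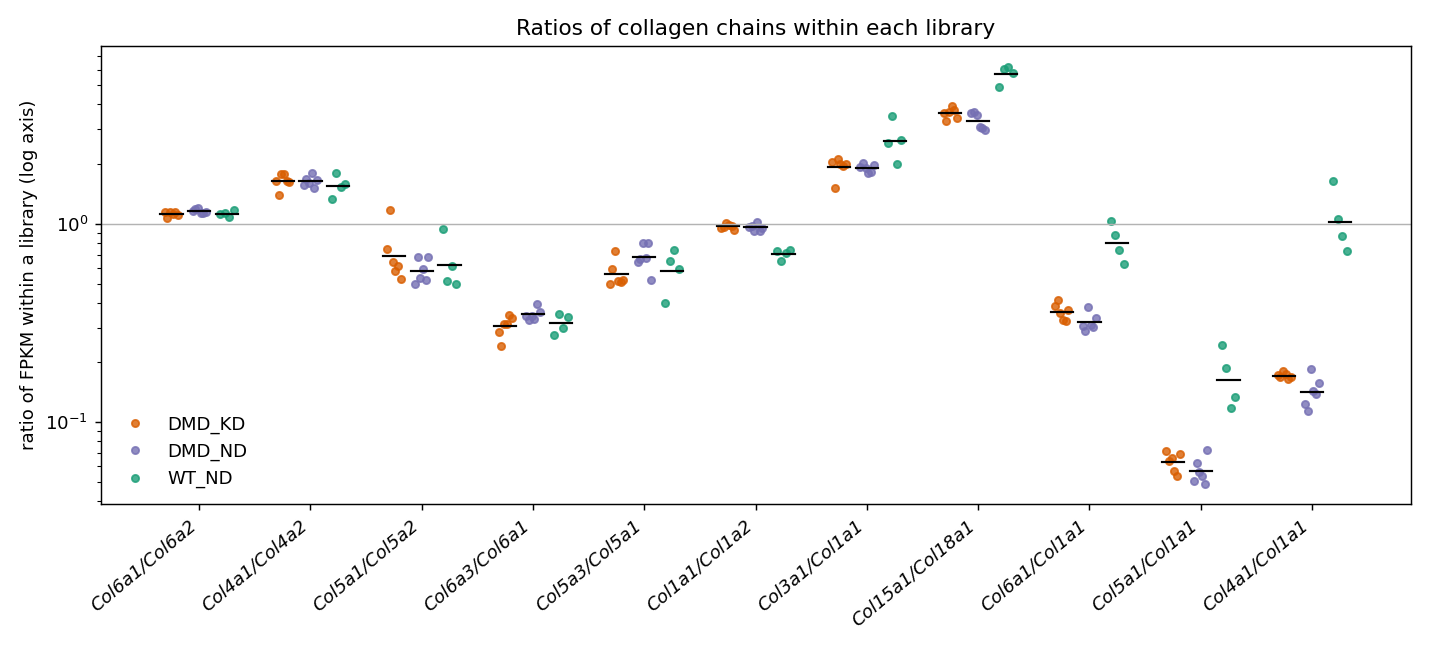
Ratio of the FPKM of 2 collagen chains within each library (log axis), for DMD_KD left, DMD_ND in the middle and WT_ND right. Points are libraries and bars geometric means, and the ratios of Col4a1, Col5a1 and Col6a1 to Col1a1 are lower in every mutant library than in any WT_ND library.

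Dmd rats on MCTKD were compared with Dmd rats on the normal diet, and no collagen was called. In DMD_KD against DMD_ND 0 of 24 members passed an adjusted p under 0.05 by limma, 0 without DMD_KD replicate 3, and 0 by limma-voom on the reads recovered from the FPKM, against 0.00825% of all tested genes by limma. At an unadjusted p under 0.05 there were 6 members by each tool, against 14.3% of all genes by limma, 10 with array weights (18.7% of all genes) and 17 with libraries rescaled to a common total (25.3%). The fold change was negative for 21 of 24, against 51.1% of all genes, with a median of -0.17 against -0.01. No member had groups that did not overlap in either direction, against 0.507% of all genes higher and 0.444% lower. Rescaling each library to a common total moved the median of all genes to -0.24 and that of the members to -0.43, and made 23 of 24 negative.

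The lowest p-values belonged to fibrillar, FACIT and beaded filament chains. Col16a1 had 5.10, 6.31 and 7.59 FPKM in DMD_KD (lowest, median, highest), against 7.26, 7.91 and 10.6 in DMD_ND, a log2 fold change of -0.37 ± 0.11 (unadjusted p = 0.0032, adjusted p = 0.20, limma). Col5a3 had 6.97, 9.61 and 10.9 FPKM in DMD_KD, against 10.3, 11.9 and 18.6 in DMD_ND, a log2 fold change of -0.42 ± 0.14 (adjusted p = 0.23). The other members under an unadjusted 0.05 were Col19a1 (-0.42), Col5a2 (-0.41), Col6a3 (-0.34) and Col12a1 (-0.31).

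For the abundant chains the intervals show what these libraries allow. Col1a1 had 221, 261 and 313 FPKM in DMD_KD, against 260.3, 328 and 446 in DMD_ND, a log2 fold change of -0.33 with a 95% interval of -0.70 to 0.04. Col3a1 had 431, 473 and 629 FPKM in DMD_KD, against 496, 615 and 908 in DMD_ND, at -0.32 with an interval of -0.69 to 0.06. Col4a1 had 37.9, 44.6 and 52.7 FPKM in DMD_KD, against 39.6, 48.4 and 51.0 in DMD_ND, at -0.06 with an interval of -0.29 to 0.17. The groups overlapped for each of these.

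None of 14 chain ratios was called between DMD_KD and DMD_ND. Col4a1 to Col1a1 was 0.164 to 0.181 in DMD_KD and 0.113 to 0.185 in DMD_ND, a log2 difference of 0.27 (exact p = 0.030, adjusted p = 0.078). Col6a3 to Col6a1 was 0.241 to 0.348 in DMD_KD and 0.327 to 0.395 in DMD_ND, a difference of -0.20 with the same p-values. Leaving out a single library brought up to 2 calls: Col5a3 to Col5a1 without DMD_KD replicate 5, Col6a3 to Col6a1 without DMD_KD replicate 9, Col12a1 to Col14a1 without DMD_ND replicate 5, and Col4a1 and Col6a1 to Col1a1 without DMD_ND replicate 6.

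Both comparisons with wild type share the WT_ND libraries. In DMD_KD against WT_ND 22 of 24 members were called higher (27.3% of all genes) and 1, Col7a1, lower (31.1%). Of all 42, 28 had every DMD_KD library above every WT_ND library (15.3% of genes with a read) and 1 had every one below (10.2%), and with every gene fitted 29 were called higher (19.7%) and 2 lower (17.5%). Col1a1 stood 3.99 ± 0.20 higher on the log2 scale, Col6a1 2.82 ± 0.15 and Col4a1 1.44 ± 0.12, and Col7a1 fell by 1.27 ± 0.11. Col24a1 was not called, at 0.32 ± 0.17 (adjusted p = 0.11), and was called with libraries rescaled to a common total (0.83, adjusted p = 0.020), without DMD_KD replicate 3 (0.43, adjusted p = 0.022) or without WT_ND replicate 9 (0.44, adjusted p = 0.044). Col22a1 was called, at 0.34, and lost without WT_ND replicate 4 (0.26, adjusted p = 0.085).

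Genes that make, trim, join, bind and cleave collagen were read from 6 lists, whose counts stand against 31.5% of all tested genes called higher and 34.3% called lower in DMD_ND against WT_ND, at a median log2 fold change of -0.04. In DMD_ND against WT_ND, of 21 tested genes of folding and modification 15 were called higher and 2 lower, with a median log2 fold change of 0.50. P4ha3, called higher, had no WT_ND library at 1 FPKM and passed the filter only through the mutant libraries. Fkbp10, a chaperone of procollagen, averaged 15.4 ± 1.92 FPKM in DMD_ND (SD, n = 6) and 1.68 ± 0.310 in WT_ND (n = 4), a log2 fold change of 2.61. Sparc, a collagen-binding protein of the matrix, rose by 2.27, P3h3, a relative of the prolyl hydroxylases, by 2.10 and Creb3l1, a transcription factor for collagen genes, by 2.02. The 2 that fell, named after their values were seen, were P4ha1, a prolyl hydroxylase subunit (-0.56), and Mia3, which loads collagen into transport vesicles (-0.82).

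All 5 tested genes of propeptide cleavage and all 6 of crosslinking were called higher, where 31.5% of all tested genes were. Of them, Tll1, Adamts2, Adamts14, Lox, Loxl3 and Loxl4 had no WT_ND library at 1 FPKM. These passed the filter only through the mutant libraries, which limits what the counts show. Pcolce, which enhances the C-terminal cleavage, averaged 74.1 ± 10.2 FPKM in DMD_ND and 8.49 ± 1.94 in WT_ND, a log2 fold change of 2.997. Bmp1, the protease it assists, rose by 2.65, Adamts2, which cuts the N-terminal propeptide, by 1.82 and Tll1 by 0.83. Loxl1, of the lysyl oxidases that crosslink fibres, averaged 23.5 ± 3.78 FPKM in DMD_ND and 1.21 ± 0.694 in WT_ND, a log2 fold change of 3.50. Loxl2 rose by 2.60, Loxl3 by 1.27 and Loxl4 by 0.88.

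Of 10 receptor and uptake genes with a row 6 were tested and 5 called higher, again against 31.5% of all tested genes. Itga11 had no WT_ND library at 1 FPKM and passed the filter only through the mutant libraries. Itga1, Itga2, Itga10 and Lair1 were below the filter. Itga1 averaged 1.18 FPKM in WT_ND and 0.212 in DMD_ND, without overlap, and Itga10 went the other way, at 0.0132 and 0.432. Mrc2, which takes up collagen fragments, rose by 1.59, the integrin subunits Itga11 and Itgb1 by 1.55 and 1.14 and the collagen receptor kinase Ddr2 by 1.09. Of 8 genes of collagenolysis with a row 4 were tested, and all 4 were called higher. Ctsk, a cathepsin, rose by 3.56, the matrix metalloproteinases Mmp14 and Mmp2 by 3.33 and 3.22 and Fap by 2.43. Mmp8, Mmp9, Mmp13 and Mmp16 were below the filter, at 0.513, 0.0730, 0.153 and 0.131 FPKM on average in DMD_ND. Of 13 genes of growth factor or nuclear control 7 were higher and 1 lower, where 31.5% and 34.3% of all tested genes were. Ccn2, a matricellular protein induced by TGF-β, rose by 3.25, Tgfb1 by 2.38, the receptor Tgfbr2 by 1.66 and the coactivator Wwtr1 by 1.14, while Smad3, named after its value was seen, fell by 1.49.

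None of these genes was called in DMD_KD against DMD_ND by limma, where 0.00825% of all tested genes were. In folding and modification the lowest p-values were those of P4ha3 (log2 fold change -0.43), P3h2 (-0.30), Plod2 (-0.37) and P4ha2 (-0.17). In propeptide cleavage Tll1 stood at -0.17, Pcolce at -0.15, Bmp1 at -0.19 and Adamts2 at -0.09. In crosslinking Loxl2 stood at -0.32, Loxl3 at -0.20, Lox at -0.33 and Loxl4 at -0.10. Ddr1 (0.16), Adgrg1 (-0.12), Itgb1 (-0.15) and Ddr2 (-0.08) were the receptors with the lowest p-values. Ctsk averaged 21.1 ± 6.78 FPKM in DMD_KD and 31.3 ± 5.17 in DMD_ND (SD, n = 6 each), at -0.61 (adjusted p = 0.26, limma), with Fap at -0.38, Mmp2 at -0.22 and Mmp14 at -0.20. Among control genes Wwtr1 stood at -0.29, Tgfb2 at -0.44, Ccn2 at -0.57 and Tgfbr2 at -0.23.

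**Figure D5:**
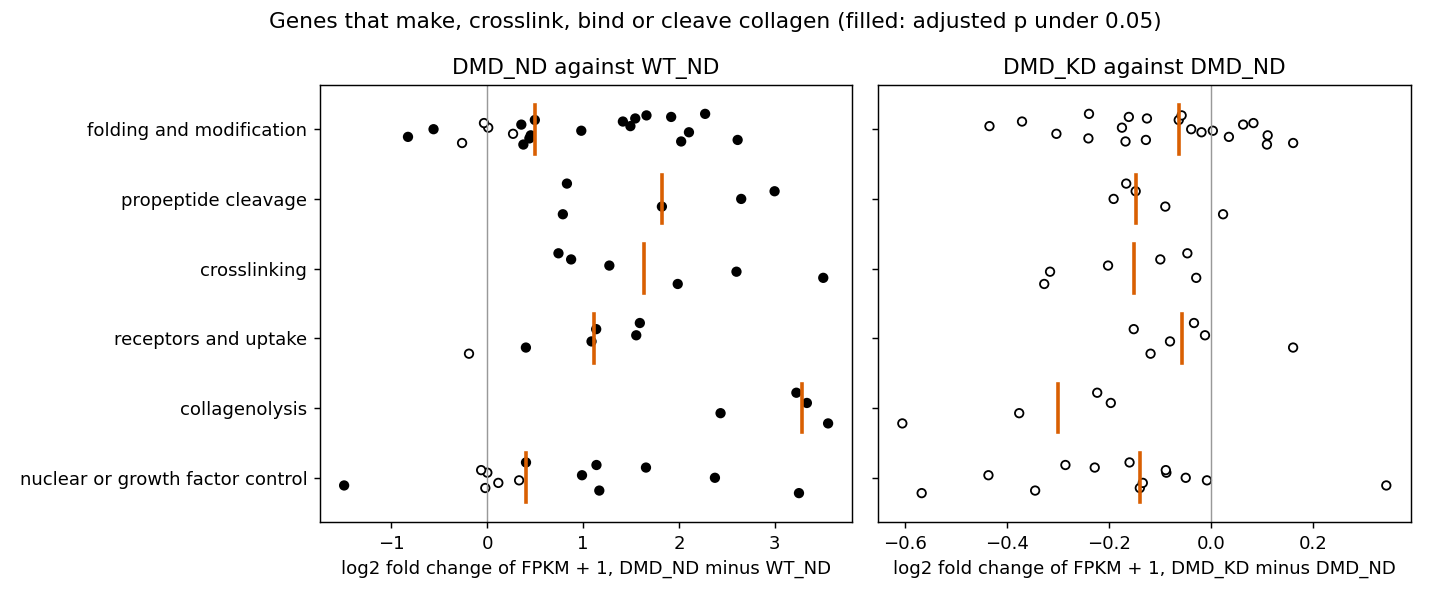
Log2 fold change of FPKM + 1 for the tested genes of 6 collagen-related lists, DMD_ND minus WT_ND (left) and DMD_KD minus DMD_ND (right, on a narrower axis). Each point is a gene, filled where called, and orange bars are list medians, 3.28 for collagenolysis on the left.

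In DMD_ND against WT_ND, all or all but 1 of the tested fibroblast, macrophage, adipocyte, tendon cell and junctional nuclei markers were called higher. Both tested chondrocyte markers were too, but only 2 of 7 were tested. Of the other cell types with tested markers, a smaller part or none was called higher. The counts below are of DMD_ND against WT_ND, where 31.5% of all tested genes were called higher and 34.3% lower. The summed FPKM of 9 fibroblast markers ranged over 824 to 1527 in DMD_KD, 1033 to 2194 in DMD_ND and 149 to 337 in WT_ND, and 9 of 9 were called higher in DMD_ND against WT_ND. The summed macrophage markers ranged over 285 to 468, 317 to 720 and 18.7 to 42.4 in those groups, with 7 of 7 called higher. Adipocyte markers ranged over 78.6 to 231 in DMD_KD, 118 to 511 in DMD_ND and 12.0 to 37.3 in WT_ND, with 6 of 6 higher. Tendon markers were called higher in 5 of 6, the other being Mkx (-0.32), and their sum ranged over 74.6 to 135, 92.2 to 180.1 and 16.3 to 35.7. Abundant genes carry such sums, which do not stand for every gene of a list. Among tendon markers Thbs4 averaged 86.8 FPKM in DMD_ND and 4.27 in WT_ND, and among fibroblast markers Gsn averaged 853 and 123. Smooth muscle or pericyte markers were higher in 5 and lower in 1 of 8, Schwann cell markers higher in 2 of 5 tested, satellite cell markers higher in 2 and lower in 1 of 7, and genes of junctional nuclei higher in 6 and lower in 1 of 7. Endothelial markers were higher in 0 and lower in 2 of 7, with sums of 55.9 to 74.3, 51.2 to 71.7 and 59.9 to 80.8. Myofibre markers were lower in 5 of 5. Of 7 chondrocyte markers 2, Sox9 and Comp, were tested and both higher. Acan, Matn3, Cnmd and Hapln1, below the filter, averaged 0.0222, 0.0977, 0.146 and 0 FPKM in DMD_ND, and Matn1 was at 0 in every library. None of 4 bone markers passed the filter. Some markers called higher, Comp, Retn and Erbb3 among them, had no WT_ND library at 1 FPKM. They passed the filter only through the mutant libraries. In DMD_KD against DMD_ND no marker was called, where 0.00825% of all tested genes were. The median log2 fold change there was -0.36 for the fibroblast list, -0.91 for the adipocyte list and 0.46 for the myofibre list. The part of these cells in the collagen results was not tested.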

How the data were processed

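Poly-A RNA of frozen tibialis anterior was sequenced, per the labels' protocols. Per the submitters' processing notes, the tools were HISAT2 2.0.5 and featureCounts 1.5.0-p3 and the build was mRatBN7.2. No source used here gives the strand setting of the libraries or the counting. The authors deposited FPKM for 31141 genes in 16 libraries, per the file headers. FPKM times gene length gave whole reads for 100% of values (within 0.05), and the library size behind each deposited FPKM column matched median-of-ratios size factors computed from these reads, a scaling that makes libraries comparable but depends on the genes chosen for scaling.

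From these, log2(FPKM + 1) was fitted with limma 3.58.1 in R 4.3.3 (3 group means over 16 libraries, eBayes with trend and robust) on the 12119 genes that reached 1 FPKM in 4 or more libraries. A fold change on this scale understates that of low genes. Chain ratios needed a mean of at least 1 FPKM for each chain. The fit was tested on simulated data. Alternatives were pseudocount, filter, scaling, weights, limma-voom on recovered reads, the replicate number as a block and leaving out each library. The members and lists were chosen with earlier results of these data known. Tested collagens could all be named, other lists by up to 4 lowest p-values a comparison. Promoter windows came from RefSeq (GRCr8).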

Additional observations from a re-analysis of the deposited data

Results flagged for a closer look

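In 75 groups of libraries checked (24 tested collagens and the collagen sum, in each of 3 groups), 2 held a library far from the rest of its group, and chance gives about 1 in 20 such groups. Col19a1 stood at 0.2716 FPKM in WT_ND replicate 9, against 0.0492 to 0.0807 in the other WT_ND libraries. Col8a1 stood at 4.95 FPKM in DMD_ND replicate 11, against 1.86 to 2.73 in the other DMD_ND libraries.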

How the results depend on the processing

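In DMD_ND against WT_ND the count of collagens called higher was 15 of 15 tested with a mean of at least 5 FPKM (1477 of 6244 genes). It was 33 of 42 with no filter (5491 of 22275 genes) and 23 of 24 with libraries rescaled to a common total (8564 of 12119). It was 21 of 24 with the replicate block (3338 of 12119), 21 to 22 on leaving out a library and 22 under the other alternatives. It was 0 in DMD_KD against DMD_ND under every alternative run, where 0 to 51 of all tested genes were called higher. The count called lower, 1 in both comparisons with WT_ND, was 0 with a mean of at least 5 FPKM, where Col7a1 is not tested, 2 with no filter, and 0 to 1 on leaving out a library. Replicate numbers are shared between groups, but the labels do not say that they pair libraries, and correlations of same-numbered libraries ran from -0.656 to 0.407. With the replicate block, on shared numbers only, 21 members were higher and 1 lower in DMD_ND against WT_ND and in DMD_KD against WT_ND, and 0 changed in DMD_KD against DMD_ND. Of all 12119 genes, 3338 were called higher and 3334 lower in DMD_ND against WT_ND. In DMD_KD against WT_ND 1821 and 1010 were, and in DMD_KD against DMD_ND 0 were. The shared numbers were only 3 and 9 in DMD_ND against WT_ND, and 1, 3 and 9 in DMD_KD against WT_ND. The member that lost its call with the block was Col22a1, at 0.32 (adjusted p = 0.099) in DMD_ND against WT_ND and 0.34 (adjusted p = 0.26) in DMD_KD against WT_ND, while Col24a1 stayed uncalled. The ratio of Col1a1 to Col1a2 was not called with it either, by limma on log2 ratios (0.45, adjusted p = 0.080, and 0.46, adjusted p = 0.073, in those comparisons). In DMD_KD against DMD_ND 9 members and 1847 of all 12119 genes had an unadjusted p under 0.05 with the block, at a member median of -0.30. Called ratios of DMD_KD against DMD_ND were 1 with the replicate block, Col4a1 to Col1a1 (0.41, adjusted p = 0.030), and 0 to 2 on leaving out a library.

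Some uncalled values turned sign, and the cause was not tested. In DMD_KD against DMD_ND, Col22a1 was -0.22 with libraries rescaled to a common total, -0.00073 with upper quartile scaling and -0.038 with array weights, Col24a1 -0.13 with the common total and -0.015 with the replicate block, and Col8a1 0.059 and Ddr2 0.043 with array weights. Ddr1 was -0.091 with the common total. On leaving out a library the ranges were -0.14 to 0.070 for Col14a1, -0.045 to 0.071 for Col22a1, -0.045 to 0.15 for Col24a1, -0.13 to 0.11 for Col8a1 and -0.21 to 0.083 for Ddr2. In DMD_KD against WT_ND, Col24a1 was -0.057 with the replicate block. Of log2 ratio differences in DMD_ND against WT_ND, with the replicate block Col5a1/Col5a2 was 0.019, Col4a1/Col4a2 -0.13 and Col6a1/Col6a2 -0.011, and with 1 FPKM added Col5a3/Col5a1 was -0.020 and Col6a3/Col6a1 -0.044. Leaving out a library gave -0.20 to 0.11 for Col5a1/Col5a2. In DMD_KD against DMD_ND, Col3a1/Col1a1 was -0.0095 with the replicate block and -0.013 to 0.084 on leaving out a library, Col4a1/Col4a2 -0.024 to 0.045 and Col6a6/Col6a3 -0.00082 to 0.21. Low members rest on few reads, which limits what can be called for them.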
